A study of Mus musculus with 31 samples.

Results

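Type I interferon response genes are the genes that cells switch on after type I interferons, the antiviral cytokines of the interferon alpha and beta family, reach them. The genes described here are 36 members matched by gene symbol, all 36 of them found among the 24594 genes of the count table. They were followed in regulatory T cells (Tregs, the CD4+ T cells that restrain other immune cells) sorted from 5 tissues of tumor-bearing mice and 5 of healthy mice. The series asked how Tregs of mice with mammary tumors differ from those of healthy littermates.

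RNA was sequenced from 31 libraries of FVB/N mice. The genotype K14cre;Cdh1F/F;Trp53F/F, called KEP below, has Cre under the keratin 14 promoter, so that E-cadherin and p53 are lost in epithelial cells and not by design in T cells. KEP mice bore spontaneous mammary tumors of 225 mm2, and each KEP library came from 1 mouse. Healthy mice were wt;Cdh1F/F;Trp53F/F (WT below), which carry the same floxed alleles without Cre, and each WT library was a pool of 3 mice. Blood, spleen, lung and lymph node (tumor-draining in KEP mice) gave 3 libraries per genotype, the KEP tumor gave 3 and the healthy WT mammary gland gave 4. Ages were not given in the sources used here. Sorted cells were live CD45+ CD3+ CD4+ CD8- CD25+ cells, with no gate on FOXP3. Between 4.5K and 70K cells were sorted per library, the fewest from mammary gland. Total counts ran from 8154765 to 15258958 per library.

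Levels are given as CPM, read counts scaled to the library's size after adjustment by the trimmed mean of M-values. A gene is called where edgeR's quasi-likelihood test, adjusted over all genes tested by Benjamini-Hochberg, gave an adjusted p under 0.05. Errors are standard errors of the log2 fold change (SE) or standard deviations over libraries (SD).

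As background, type I interferons bind the receptor made of IFNAR1 and IFNAR2, whose kinases JAK1 and TYK2 phosphorylate STAT2. With IRF9 it is part of the factor ISGF3, which binds interferon-stimulated response elements in the promoters of many interferon-induced genes. The products block viral RNA, proteins and particles, sense foreign nucleic acid, or tune the pathway itself. In T cells the same genes are known as a readout of recent interferon exposure.

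Several members sit in gene clusters, and the coordinates below are those of the deposited file in GRCm38. Ifit2, Ifit3 and Ifit1 lie on chromosome 19, with Ifit2 at chr19:34550694-34576419 and Ifit1 at chr19:34640871-34650009. Oas2, Oas3 and Oas1a lie on chromosome 5 between 120730333 and 120907521, and Oasl2 and Oasl1 lie on the same chromosome between 114896936 and 114937915. Parp14, Dtx3l and Parp9 lie on chromosome 16 between 35832874 and 35972605. Parp9 and Dtx3l overlap by 458 exonic bases on opposite strands, and the strand setting of the counting was not given in the sources used here, so their reads may be mixed. Near-identical copies make other values uncertain. Of the 65-base windows of its transcripts, Ifit3 shared 45.03% with Ifit3b and Oas1a shared 50.96% with Oas1g. Rtp4 shared 10.9% with Gm45338 and Herc6 shared 11.8% with neighbouring models.

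Promoters were read for the members whose values carry the results below. RefSeq promoters of GRCm38.p6 were matched for 27 of the 36 members by symbol. Oas2, Mx1, Mx2, Usp18, Zbp1, Dhx58, Rtp4, Parp14 and Parp9 were not matched. The core of the interferon-stimulated response element, searched as GAAA, any 2 bases and GAAA on both strands over 250 bases before and 50 after the start, was present in 13 of 27 members (48.1%) and in 3.99% of 27025 genes. The gamma-activated site, searched as TTCNNNGAA, was present in 6 of 27 members (22.2%) and in 9.55% of genes. These sequences are those of the reference strain and not of FVB/N. The 160 bases before the start are shown for 6 members with the first motif, in capitals and on either strand, and for Oasl2 and Sp100, where these letters are not in the window. Isg15, Ifit1, Ifit3, Bst2 and Rsad2 are among the members highest in tumor, Trim30a had the smallest p between KEP and WT mice, and Sp100 was lower in tumor.
Isg15, chr4:156200819-156200978, minus strand: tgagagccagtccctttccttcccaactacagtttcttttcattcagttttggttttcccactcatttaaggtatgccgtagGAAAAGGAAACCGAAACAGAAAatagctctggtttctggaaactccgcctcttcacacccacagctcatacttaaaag
Ifit1, chr19:34640729-34640888, plus strand: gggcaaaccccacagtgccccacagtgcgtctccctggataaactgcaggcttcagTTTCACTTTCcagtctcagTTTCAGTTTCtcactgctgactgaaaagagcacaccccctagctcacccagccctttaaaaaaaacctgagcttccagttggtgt
Ifit3, chr19:34583369-34583528, plus strand: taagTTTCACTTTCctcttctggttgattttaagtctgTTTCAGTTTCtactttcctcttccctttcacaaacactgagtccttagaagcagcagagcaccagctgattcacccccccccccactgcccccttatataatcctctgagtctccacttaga
Bst2, chr8:71537473-71537632, minus strand: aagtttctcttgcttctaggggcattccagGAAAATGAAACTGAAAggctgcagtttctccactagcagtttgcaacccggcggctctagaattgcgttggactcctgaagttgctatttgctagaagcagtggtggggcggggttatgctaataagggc
Rsad2, chr12:26456453-26456612, minus strand: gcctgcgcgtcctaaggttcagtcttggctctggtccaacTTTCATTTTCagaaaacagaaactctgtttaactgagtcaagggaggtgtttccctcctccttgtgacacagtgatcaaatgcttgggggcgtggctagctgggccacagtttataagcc
Trim30a, chr7:104465194-104465353, minus strand: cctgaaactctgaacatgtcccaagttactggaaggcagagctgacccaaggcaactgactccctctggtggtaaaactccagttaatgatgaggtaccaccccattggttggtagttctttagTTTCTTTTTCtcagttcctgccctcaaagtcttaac
Oasl2, chr5:114896774-114896933, plus strand: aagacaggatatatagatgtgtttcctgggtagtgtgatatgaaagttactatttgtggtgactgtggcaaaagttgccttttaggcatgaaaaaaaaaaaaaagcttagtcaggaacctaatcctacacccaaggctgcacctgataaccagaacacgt
Sp100, chr1:85649828-85649987, plus strand: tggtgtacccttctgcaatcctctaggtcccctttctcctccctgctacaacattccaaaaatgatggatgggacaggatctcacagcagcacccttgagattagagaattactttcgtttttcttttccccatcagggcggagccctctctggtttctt
In Isg15 the motif stands 3 times in overlapping register, its first bases 78, 72 and 66 before the start. Ifit1 has it 104 and 85 bases before the start, and Ifit3 has it 156 and 122 before. Bst2 has it 130 and 124 before the start in overlapping register, Rsad2 has it 120 before and Trim30a 36 before. A match is a description of the letters and does not show that a factor binds there.

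The libraries differed in how much of their RNA came from T cells, and this touches every tumor and mammary gland value below. The summed level of 10 pan-T genes was 83.3% to 103.8% of the WT spleen mean in the 24 libraries of the 4 distant tissues, which are blood, spleen, lung and lymph node. In the tumor libraries it was 104.5%, 59.95% and 31.6% (replicates 1, 2 and 3), and in mammary gland 7.80%, 33.1%, 2.90% and 3.65%. Foxp3, the Treg lineage factor, was at 1610.5, 846 and 462 CPM in tumor and at 93.5, 416, 18.7 and 31.2 CPM in mammary gland. Macrophage and monocyte genes summed to 1269, 7738 and 2193 CPM in tumor and 1032 to 1547 CPM in mammary gland, against at most 201 CPM elsewhere. Epithelial genes summed to 5227 to 7128 CPM in mammary gland, and to 171, 203 and 2225 CPM in tumor. Milk protein genes summed to 5697 to 36062 CPM in mammary gland and to 5174 CPM in tumor replicate 3. Fibroblast and endothelial genes summed to 4296, 9343 and 9648 CPM in tumor, 1602 to 4629 CPM in mammary gland. In bulk RNA, fewer cells of a type and less RNA per cell cannot be told apart. The part of these other cells in the results was not tested.

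In WT spleen, levels per kilobase of exon ranked Sp100 first among the members (71.1 ± 3.5 CPM per kb, SD, n = 3), followed by Samd9l (40.3), Bst2 (38.7) and Ifi35 (38.6). Sp100, a nuclear body protein, also led in WT blood, KEP spleen and both groups of lung and lymph node, while Samd9l led in KEP blood (84.7 ± 14.1). A set of 7 members stayed under 5 CPM on average in all 8 groups of the distant tissues, namely Ifit3, Oas2, Oasl1, Oasl2, Mx1, Mx2 and Ifi44. In tumor the order per kilobase was another one, with Bst2 first (112.3 ± 10.3, SD, n = 3), then Isg15 (90.2 ± 23.7) and Zbp1 (41.8 ± 17.5). Bst2 and Isg15 did not differ beyond their spread, since their ranges overlapped. Of the 36 members, 25 had their highest group mean in tumor, 8 in KEP blood, 2 in KEP lymph node and 1 in WT spleen. Mammary gland held the lowest mean for 19 members. The same counts over all genes are not given here, so these describe the members only and show no trait particular to them.

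A set of 13 members was higher in each of the 3 tumor libraries than in any of the 24 libraries of the 4 distant tissues. They were Isg15, Ifit1, Ifit3, Oas2, Oasl1, Oasl2, Mx1, Mx2, Usp18, Ifi44, Dhx58, Bst2 and Rtp4. The 13 are 36.1% of the members, against 17% of the 13288 genes tested in a tumor comparison. Of the 13, Oasl1 and Ifi44 gave at most 10 counts per library in the 4 distant tissues. Both passed the filter on low counts only through the tumor libraries. Sp100 alone was lower in all 3 tumor libraries than in all 24 others, 2.78% of the members against 10.8% of genes. Taken library by library, tumor replicate 1, whose pan-T sum was 104.5% of the WT spleen mean, had 22 members above all 24 libraries (61.1%, against 23.8% of genes). Tumor replicate 2 had 26 (72.2%, against 26.8%) and tumor replicate 3 had 15 (41.7%, against 30%). The 4 mammary gland libraries had 6, 5, 6 and 12 members above all 24, while 32.6%, 28.6%, 32.6% and 32.2% of genes were.

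Isg15, the ubiquitin-like modifier that is attached to proteins after interferon, was at 85.5, 69.4 and 49.7 CPM in the tumor libraries. In mammary gland it was at 12.6, 20.1, 16.98 and 20.01 CPM, and in KEP lung, the highest of the distant tissues, at 19.8, 14.95 and 16.5 CPM. Every tumor library exceeded every other library. Usp18, the protease that removes Isg15 and also damps the receptor, was at 21.4, 30.1 and 22.7 CPM in tumor. It was at 2.34, 2.76, 2.74 and 3.37 CPM in mammary gland and at 9.61, 5.48 and 6.499 CPM in KEP lymph node. Tumor libraries were again above all others, and mammary gland lay within the range of lung and blood. Herc6, the ligase that attaches Isg15 in mice, was at 61.3, 62.1 and 34.8 CPM in tumor and 14.4, 19.2, 12.3 and 23.8 CPM in mammary gland, and its tumor values overlapped those of the 4 other tissues.

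The IFIT proteins bind viral RNA and block its translation. Ifit3 was at 16.6, 27.3 and 12.6 CPM in tumor, at 1.13, 1.29, 1.96 and 5.91 CPM in mammary gland and at 0.626, 0.723 and 0.601 CPM in KEP blood. Ifit1 was at 34.1, 45.5 and 28.7 CPM in tumor and at 5.21, 2.85, 4.96 and 9.63 CPM in mammary gland. It was at 9.47, 3.45 and 3.54 CPM in KEP lymph node, where replicate 1 was the high library, and WT lymph node replicate 2 was as high (9.53 CPM). Both genes were higher in all tumor libraries than in any other, mammary gland included. Ifit2, in contrast, was at 35.2, 53.8 and 34.2 CPM in tumor and at 27.1, 35.2 and 31.4 CPM in WT lymph node, so the ranges of those groups overlapped.

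The OAS enzymes make the second messenger that activates the RNA-degrading enzyme RNase L, and the OAS-like genes are their relatives. Oasl2 was at 21.2, 58.04 and 61.4 CPM in tumor and at 14.6, 10.4, 16.8 and 24.7 CPM in mammary gland, so that mammary gland replicate 4 lay above tumor replicate 1. In the 24 libraries of the other tissues Oasl2 lay between 0.633 and 4.10 CPM. Oasl1 gave 58, 218 and 142 counts in the tumor libraries and 35, 20, 42 and 58 in mammary gland, against 0 to 7 counts in every library of the 4 other tissues. Oas2 was at 17.6, 27.1 and 15.02 CPM in tumor and 2.12, 4.49, 4.77 and 11.6 CPM in mammary gland. Oas3 behaved otherwise, at 52.03, 56.97 and 17.2 CPM in tumor and 1.96, 3.54, 1.11 and 1.79 CPM in mammary gland, but at 47.3, 30.1 and 30.97 CPM in KEP spleen. The tumor range of Oas3 thus contained that of KEP spleen, while mammary gland lay below every other library.

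Mx1 and Mx2 encode dynamin-like GTPases that trap viral nucleoproteins. Mx1 was at 30.7, 44.97 and 18.1 CPM in tumor, 0.529, 1.12, 0.784 and 0.550 CPM in mammary gland and 3.43, 2.18 and 4.29 CPM in KEP spleen. Mx2 was at 21.2, 27.9 and 16.3 CPM in tumor, 9.52, 8.02, 12.9 and 21.7 CPM in mammary gland and 3.34, 1.898 and 1.802 CPM in KEP blood. Mx1 was therefore lowest in mammary gland, while Mx2 there was above all 24 libraries of the other tissues and overlapped tumor.

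Among the other effectors, Bst2 (tetherin, which holds budding virus at the cell surface) was at 97.4, 112 and 94.8 CPM in tumor and 43.6, 34.2, 43.9 and 31.6 CPM in mammary gland. Its 24 values elsewhere lay between 22.5 and 39.9 CPM, a narrow range that no tumor library entered. Rsad2 (viperin, which makes a chain-terminating nucleotide) was at 24.5, 38.2 and 42.5 CPM in tumor. It was at 9.604, 39.8 and 30.2 CPM in KEP blood and at 0.744, 0.0842 and 0.494 CPM in KEP lymph node. Blood and tumor overlapped for Rsad2, and lymph node was lowest. Ifi44 gave 65, 196 and 320 counts in tumor and 61, 27, 77 and 177 in mammary gland, and between 0 and 10 in each of the other libraries. The plot of 6 members by group shows these shapes.

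**Figure D1:**
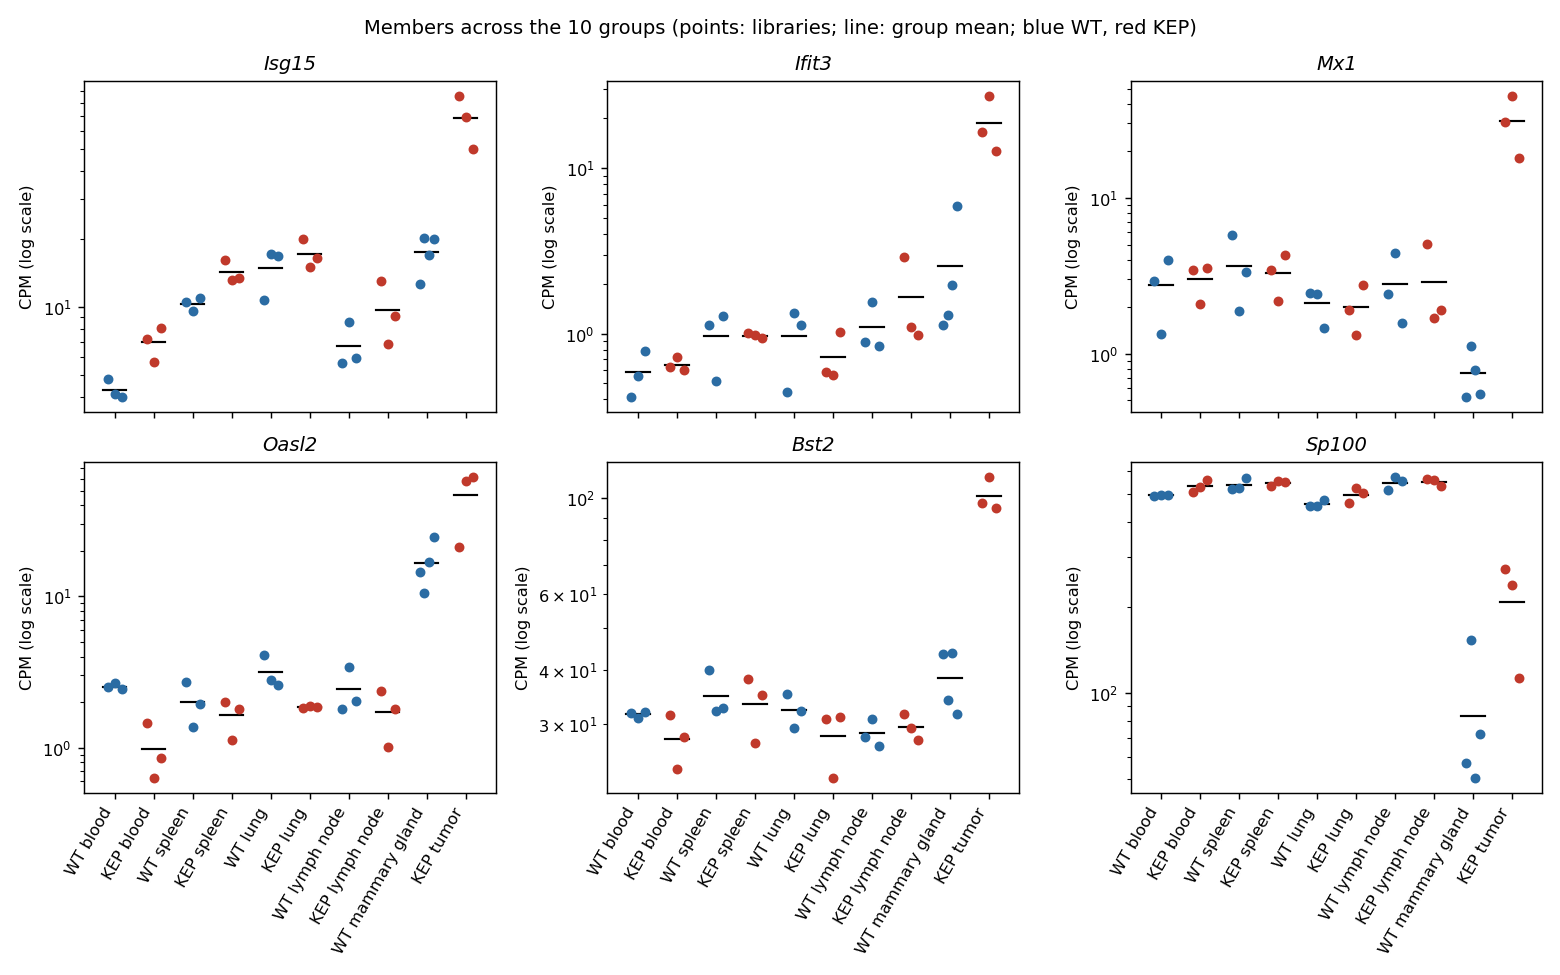
CPM of Isg15, Ifit3, Mx1, Oasl2, Bst2 and Sp100 on a log axis in each of the 10 groups. Each point is 1 library (blue WT, red KEP) and each line a group mean. The tumor points are the highest for the first 5 genes, apart from 1 Oasl2 library that overlaps mammary gland, and Sp100 is lower in tumor and mammary gland than in the 4 other tissues.

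Against WT mammary gland, the healthy counterpart of the tumor, 23 of 36 members were higher in tumor and none lower (63.9% called, against 25.2% of 14538 genes). Of these genes 11.2% were called higher. The median log2 fold change of the members was 1.76, and of all genes -0.01. All 5 OAS members, all 3 IFIT members and all 3 genes of the ISG15 system rose. Of 5 nucleic acid sensors 3 rose (Ddx60, Dhx58 and Zbp1), and none of the 3 ADP-ribosylation genes was called. These values compare RNA pools of unlike composition, as given above. With libraries scaled to the 10 pan-T genes in place of all genes, no member was called higher and 11 were called lower, while the median of all genes moved to -3.42. Of the 14538 genes 44 were called higher and 12350 lower under that scaling.

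Mx1 gave the largest difference, 5.48 ± 0.44 (log2, SE), but mammary gland gave 7, 13, 12 and 8 counts of it. Mx1 passed the low-count filter here only through the tumor libraries. Its call is therefore no support, though it is counted among the members called higher. Usp18 had the smallest p of the members, with a difference of 3.23 ± 0.23 (adjusted p = 0.00129). Mx1 and Usp18 were higher in every tumor library than in every mammary gland library. Isg15 rose by 2.08 ± 0.26 (adjusted p = 0.00414) and Bst2 by 1.497 ± 0.18 (adjusted p = 0.00413), also without overlap. Oas3 rose by 4.43 ± 0.56 (adjusted p = 0.00452). Ddx60, a helicase that assists RNA sensing, was at 29.3, 43.6 and 28.1 CPM in tumor and 6.72, 10.95, 6.99 and 11.003 CPM in mammary gland, a rise of 2.01 ± 0.27 (adjusted p = 0.00518). Scaled to pan-T genes, Mx1 and Oas3 were above 0 and not called, and Isg15, Bst2, Usp18 and Ddx60 were below 0, at -1.52, -1.97, -0.23 and -1.38.

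Other members were not called against mammary gland. Parp9 was at 88.9, 104 and 78.1 CPM in tumor and 91.8, 70.04, 104 and 146 CPM in mammary gland (-0.08 ± 0.25, adjusted p = 0.832). Dtx3l was at 118, 105 and 54.2 and 83.3, 59.1, 86.7 and 135 CPM (0.13 ± 0.36, adjusted p = 0.803), and Eif2ak2 at 38.9, 51.6 and 51.4 and 45.6, 34.2, 42.9 and 62.4 CPM (0.13 ± 0.22, adjusted p = 0.684). For these 3 genes the libraries of both groups overlapped.

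Within KEP mice, Tregs sorted from tumor were set against those of each other tissue. These 4 comparisons share the 3 tumor libraries and are given side by side, not as independent support. Against blood 21 of 36 members were called (17 higher, 4 lower), where 47.9% of 12875 genes were. Against spleen 23 were called (21 higher, 2 lower), where 46.8% of 12927 genes were. Against lung 23 were called (22 higher, 1 lower), against 32.8% of 12850 genes, and against lymph node 23 (21 higher, 2 lower), against 44.7% of 12903 genes. With so many of all genes called, the count of members called is to be read by direction. Genes called higher made up 28%, 26.9%, 19.8% and 26.5% of all genes, and 47.2%, 58.3%, 61.1% and 58.3% of the members. The median log2 fold change of the members was 0.78, 0.80, 1.10 and 1.18 against blood, spleen, lung and lymph node, and that of all genes 0.06, 0.04, 0.05 and 0.04.

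Isg15 was higher in tumor by 3.32 ± 0.25 against blood, 2.28 ± 0.23 against spleen, 2.004 ± 0.23 against lung and 2.87 ± 0.31 against lymph node (log2, SE; largest adjusted p = 0.00405). Ifit3 was higher by 4.87 ± 0.41, 4.27 ± 0.37, 4.700 ± 0.46 and 3.53 ± 0.54 in the same order (largest adjusted p = 0.00440). Ifit1 was higher by 3.16, 2.85, 3.83 and 2.76, and Oasl2 by 5.62, 4.85, 4.68 and 4.79. Bst2 differed least among these, by 1.92 ± 0.15, 1.62 ± 0.16, 1.86 ± 0.17 and 1.83 ± 0.11, with the smallest p of any member against lymph node (adjusted p = 9.93e-04). For all 5 genes the tumor libraries lay above all libraries of each tissue. Ifit3 gave 6, 8 and 7 counts in KEP blood and 7, 6 and 11 in KEP lung. Oasl2 gave 14, 7 and 10 counts in KEP blood. In these comparisons both genes passed the low-count filter only through the tumor libraries. Their calls there are therefore no support.

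Usp18 was higher in tumor by 2.94, 2.500, 3.34 and 1.83, and Mx2 by 3.26, 2.69, 2.88 and 2.93. Usp18 thus differed least from lymph node, where its level was highest among the 4 KEP tissues. Rsad2 was higher by 3.75 ± 0.29 against lung (adjusted p = 0.00236). Its fold against lymph node was 6.29 ± 0.59, but KEP lymph node gave 11, 1 and 6 counts. Rsad2 passed the low-count filter there only through the tumor libraries, so that call is no support. Against blood Rsad2 was not called (0.45 ± 0.51, adjusted p = 0.488). Irf7, the transcription factor that amplifies interferon production, was at 122, 149 and 96.9 CPM in tumor and at 49.5, 39.9 and 40.7 CPM in KEP lymph node, a rise of 1.54 ± 0.18 (adjusted p = 0.00205). Oasl1 and Ifi44 were called in all 4. The other tissues gave at most 10 counts per library, so both passed the filter on low counts only through the tumor libraries. Their calls are therefore no support, though they are included in the members called higher in each comparison. The counts above describe these 2 genes better than a fold. Oas2 gave 32, 8 and 9 counts in KEP spleen and 22, 12 and 9 in KEP lung. In KEP lymph node it gave 41, 8 and 6. Against these tissues Oas2 too passed the filter only through the tumor libraries, so those calls are no support. Like those of Ifit3, Oasl2 and Rsad2 set aside above, they are included in the members called higher.

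Among the 5 sensors, Ifih1, Dhx58 and Ddx60 rose against each KEP tissue. Ifih1 (MDA5, a sensor of long viral RNA) was at 37.4, 46.8 and 31.2 CPM in tumor and 15.03, 9.94 and 10.1 CPM in KEP blood, a rise of 1.76 ± 0.25 (adjusted p = 0.00345). Dhx58 (LGP2, its cofactor) was at 42.1, 41.95 and 28.2 CPM in tumor and 16.3, 11.96 and 16.2 CPM in KEP lung, a rise of 1.34 ± 0.23 (adjusted p = 0.00884). Ddx58 (RIG-I, a sensor of viral RNA ends) was called against no tissue, at 92.9, 118 and 95.6 CPM in tumor and 114, 127 and 119 CPM in KEP spleen (-0.21, adjusted p = 0.194). Zbp1, a sensor of Z-form nucleic acid, was at 183, 183 and 76.3 CPM in tumor, where replicate 3 was the low one, and was also called against no KEP tissue.

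The members called lower in tumor were Sp100, Dtx3l, Samd9l and Irf9. They numbered 4, 2, 1 and 2 against blood, spleen, lung and lymph node, which is 11.1%, 5.56%, 2.78% and 5.56% of the members, where 19.9%, 19.9%, 13% and 18.3% of all genes were called lower. Sp100 was at 274, 239 and 114 CPM in tumor and at 531, 554 and 551 CPM in KEP spleen, a fall called against blood (-1.31 ± 0.32), spleen (-1.37 ± 0.33), lung (-1.24 ± 0.32) and lymph node (-1.36 ± 0.33). Dtx3l, the ubiquitin ligase partner of Parp9, fell against blood, spleen and lymph node (-1.18, -1.06 and -0.87). Samd9l, a restriction factor, and Irf9 fell against blood (-1.19 ± 0.29 and -0.77 ± 0.23). With scaling to pan-T genes no member was called lower, and Sp100 was at -0.74, -0.67, -0.61 and -0.78 in the order above, where the median of all genes was 0.86, 0.96, 0.90 and 0.85. Under that scaling 18, 21, 21 and 21 members were called, all of them higher. Of all genes 3208, 3613, 2443 and 3203 were called higher and 223, 162, 90 and 161 lower. Those tested numbered 12875, 12927, 12850 and 12903.

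The tumor replicates themselves differed. Tumor replicate 2, with 7738 CPM of macrophage and monocyte genes, was the highest of the 3 for 24 of 36 members. Tumor replicate 3, with the lowest pan-T sum and the most epithelial and milk transcripts, was the lowest for 28. All 15 macrophage and monocyte genes tested were called higher in tumor against each KEP tissue, and their part in the members' values was not tested. Without replicate 2 the calls numbered 19 against mammary gland, and 19, 20, 19 and 19 against blood, spleen, lung and lymph node. Leaving out single spleen libraries gave 15, 14 and 14 calls against spleen in place of 23, all higher. Markers of plasmacytoid dendritic cells, which are known for making interferon alpha, summed over 9 genes to 160.5, 218 and 162 CPM in tumor, 106 to 148 CPM in mammary gland, 71.2 to 91.2 CPM in KEP blood and 172 to 176 CPM in KEP lymph node. Against mammary gland 2 of the 6 tested were called higher and 0 lower, and against KEP blood and KEP lung 2 of 5 were called higher and 1 lower. Against KEP spleen 1 of 6 was called higher and 3 lower, and against KEP lymph node 1 higher and 2 lower. Siglech, 1 of these 9 genes, was at 0, 1.78 and 0.193 CPM in tumor. The part of plasmacytoid dendritic cells in the members' values was not tested.

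**Figure D2:**
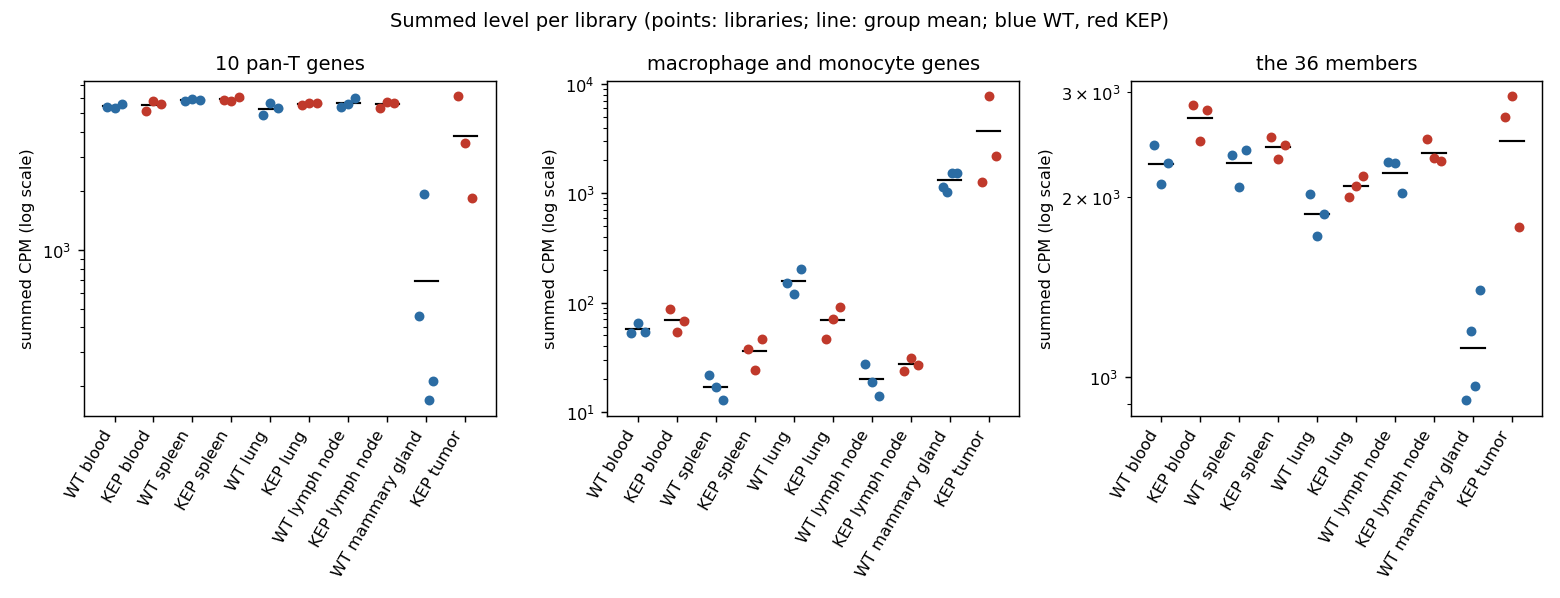
Summed CPM per library on log axes of the 10 pan-T genes, the macrophage and monocyte genes and the 36 members. Each point is 1 library and each line a group mean. Tumor libraries spread widely in the first 2 panels, mammary gland is lowest for pan-T genes and members, and the 24 libraries of the other tissues lie close together for pan-T genes.

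Between KEP and WT mice in the same tissue, a handful of members differed. Tregs of blood and lung had more Parp9, Dtx3l, Trim30a, Zbp1 and Eif2ak2 mRNA in KEP mice, by 0.37 to 0.92 on the log2 scale, while most members were not called. In blood 8 of 34 members tested were called (23.5%, against 20.2% of 12825 genes), 7 of them higher (20.6%, against 9.88%) and 1 lower (2.94%, against 10.3%). In lung 6 were called (17.6%, against 19.9%), 5 higher (14.7%, against 9.61%) and 1 lower (2.94%, against 10.3%). In spleen Parp9 alone was called (2.94%, against 4.26%, 3.3% of genes being called higher), and in lymph node none was (against 1.12%) by edgeR, DESeq2 or limma-voom, with 7 members at an unadjusted p under 0.05 in edgeR. The total shares called in blood and lung lay near those of all genes, while the share called higher was above that of all genes in both. The members' median log2 fold change was 0.28 in blood, 0.17 in spleen, 0.18 in lung and 0.16 in lymph node, and that of all genes -0.01, 0.00, -0.02 and 0.01. Oasl1 and Ifi44 were too low to be tested here. No date in the library titles held both genotypes, and WT libraries were pools while KEP libraries were single mice, so genotype, date and pooling cannot be told apart.

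Trim30a, an interferon-induced TRIM protein that restrains Toll-like receptor signalling, was at 150.1, 124 and 137 CPM in KEP blood and 87.9, 98.4 and 89.6 CPM in WT blood. In lung it was at 118, 129 and 125 CPM in KEP and 85.4, 76.1 and 73.02 CPM in WT. The groups did not overlap in either tissue, and the log2 fold change was 0.55 ± 0.09 in blood (adjusted p = 1.70e-04) and 0.66 ± 0.09 in lung (adjusted p = 3.83e-05). In lymph node it was at 132, 119 and 118 CPM in KEP and 101, 107 and 100.3 CPM in WT (0.26 ± 0.09, adjusted p = 0.156), also without overlap but not called. In spleen it was at 120.2, 116 and 124 CPM in KEP and 106, 93.9 and 120.0 CPM in WT (0.17 ± 0.09, adjusted p = 0.327).

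Parp9 and Dtx3l form a complex that ADP-ribosylates and ubiquitinates chromatin proteins. Parp9 was at 115, 96.4 and 115 CPM in KEP blood and 77.1, 62.2 and 71.95 CPM in WT blood, a rise of 0.60 ± 0.10 (adjusted p = 2.89e-04). In lung it was at 88.3, 87.5 and 91.7 CPM in KEP and 62.7, 60.1 and 58.8 CPM in WT (0.55 ± 0.10, adjusted p = 8.63e-04). In spleen it was at 101, 92.9 and 106 CPM in KEP and 71.7, 70.8 and 84.05 CPM in WT (0.40 ± 0.10, adjusted p = 0.0225), and in lymph node at 101, 82.97 and 97.6 CPM in KEP and 72.6, 85.6 and 67.01 CPM in WT (0.33 ± 0.10, adjusted p = 0.125). Only in lymph node did the genotypes overlap. Dtx3l was at 220.1, 199.5 and 226 CPM in KEP blood and 172, 122 and 174 CPM in WT blood (0.44 ± 0.12, adjusted p = 0.00954). In lung it was at 100.2, 113 and 117 CPM in KEP and 89.95, 65.3 and 95.6 CPM in WT (0.38 ± 0.12, adjusted p = 0.0270). Parp14, the third gene of the group, was called in no tissue, with log2 fold changes of 0.01 to 0.20.

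Zbp1 was at 117, 112 and 123 CPM in KEP blood and 90.5, 73.7 and 77.7 CPM in WT blood, a rise of 0.52 ± 0.09 (adjusted p = 5.32e-04). In lung it was at 84.6, 92.6 and 94.3 CPM in KEP and 71.7, 66.3 and 71.1 CPM in WT (0.37 ± 0.10, adjusted p = 0.00944). Genotypes did not overlap in either. Eif2ak2 (PKR, the kinase that halts translation on double-stranded RNA) was at 39.04, 24.95 and 32.4 CPM in KEP blood and 21.01, 20.7 and 15.7 CPM in WT blood (0.73 ± 0.22, adjusted p = 0.0213). In lung it was at 32.9, 27.5 and 32.7 CPM in KEP and 15.5, 16.1 and 17.3 CPM in WT, the largest called rise in any tissue (0.92 ± 0.22, adjusted p = 0.00617). Isg15 and Herc6 rose in blood as well, by 0.68 ± 0.24 (adjusted p = 0.0454) and 0.37 ± 0.13 (adjusted p = 0.0463).

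Some members went the other way. Oasl2 was at 1.46, 0.633 and 0.858 CPM in KEP blood and 2.496, 2.66 and 2.44 CPM in WT blood, a log2 fold change of -1.39 ± 0.40 (adjusted p = 0.0163) at 7 to 25 counts per library. Irf7 was at 60.05, 63.5 and 66.5 CPM in KEP lung and 112, 96.9 and 96.9 CPM in WT lung, a log2 fold change of -0.70 ± 0.14 (adjusted p = 0.00168). Neither overlapped. Macrophage and monocyte genes moved in the same direction in lung, summing to 46.7, 70.6 and 91.5 CPM in KEP and 150.1, 120.8 and 201.0 CPM in WT, and their part in the Irf7 value was not tested.

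**Figure D3:**
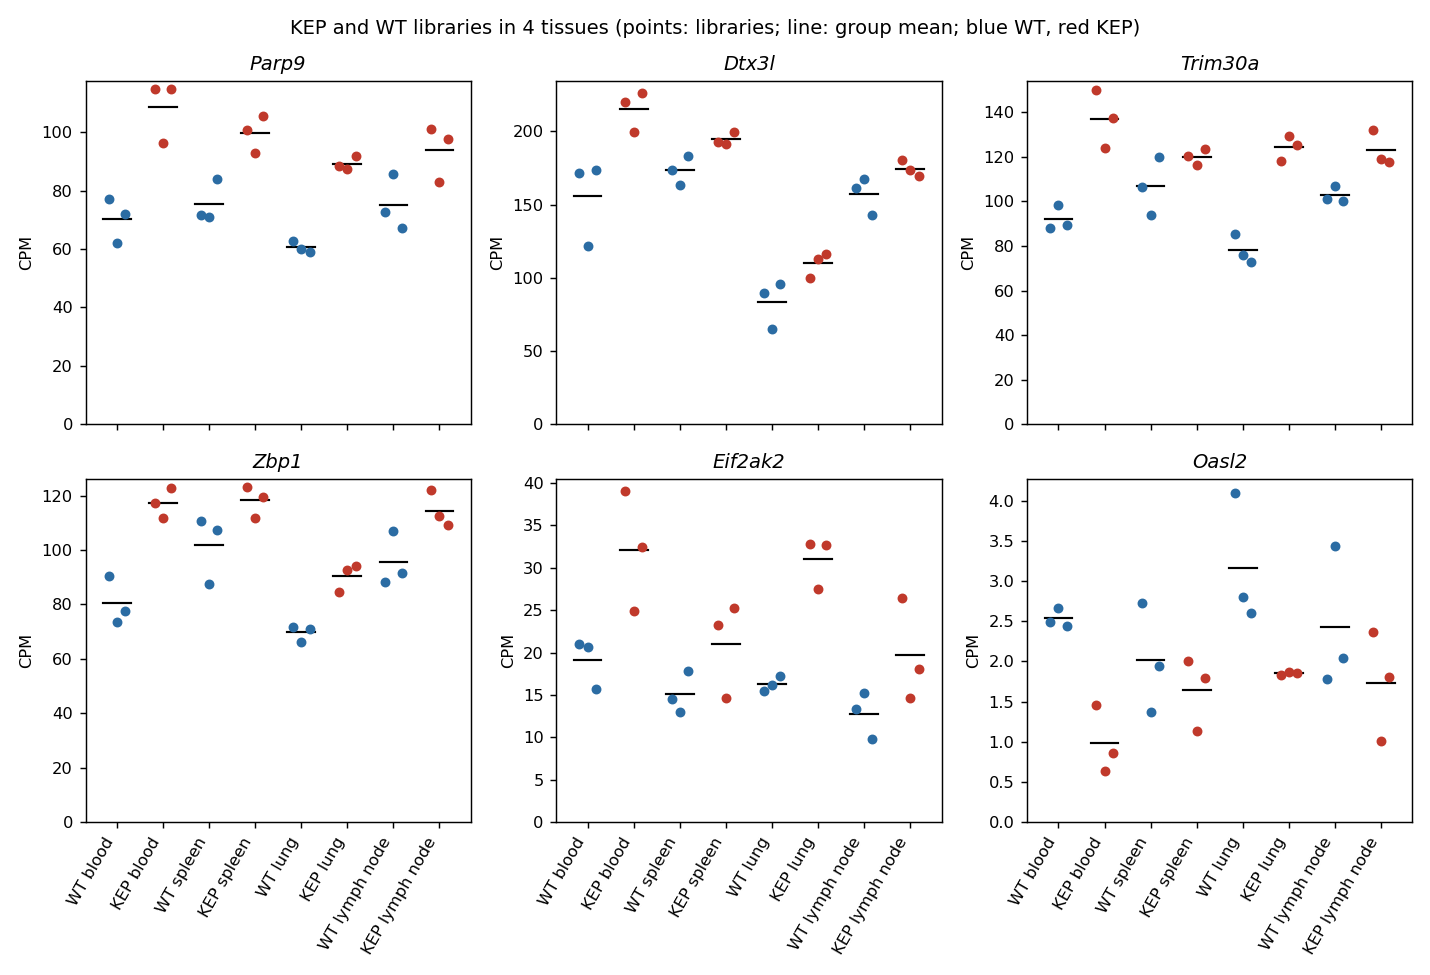
CPM of Parp9, Dtx3l, Trim30a, Zbp1, Eif2ak2 and Oasl2 in the 8 groups of blood, spleen, lung and lymph node. Each point is 1 library (blue WT, red KEP) and each line a group mean. KEP points lie above WT points in blood and lung for the first 5 genes, and below them for Oasl2 in blood.

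The calls depended on the fit and on single libraries. In a fit of all 31 libraries 1 member was called in blood, none in spleen and 1 in lung, in each case higher. Of all 15202 genes in that fit 657, 68 and 469 were called, where the main fit called 2591, 546 and 2550 of 12825. Members called in blood numbered 5 and 4 without KEP replicate 1 and 3 and 12 without WT replicate 1. Counts over all genes for those fits are not given here. Parp9 in spleen was lost without KEP replicate 1 or 3 or WT replicate 1 or 2. Treg markers moved with the genotype: Foxp3 averaged 1691 CPM in KEP and 985 CPM in WT blood, and 6, 4 and 5 of 8 marker genes were called higher in blood, spleen and lung and none in lymph node. Their part in the members' differences was not tested.

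Whether the KEP effect differs among the 4 tissues was tested for each gene by the interaction of genotype and tissue. No member was called, and 0.304% of all genes were. Trim30a (adjusted p = 0.114) and Irf7 (adjusted p = 0.155) were the members with an unadjusted p under 0.05. DESeq2 and limma-voom each called 1 member, Trim30a, and the fit with no filter on low counts called both. For Trim30a the KEP effect ranged from 0.17 in spleen to 0.66 in lung, and for Irf7 from -0.70 in lung to 0.06 in lymph node.

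The tissues were then compared within each genotype, with spleen as the reference. Lung Tregs had less mRNA of many sensors and effectors than spleen Tregs. In WT mice 16 of 34 members were called in lung against spleen (47.1%, against 44.9% of 12825 genes), 14 of them lower (41.2%, against 21.8%) and 2 higher (5.88%, against 23.1%). In KEP mice 12 were called (35.3%, against 48.1%), 11 lower (32.4%, against 24.4%) and 1 higher (2.94%, against 23.7%). Dtx3l was at 174, 163 and 183 CPM in WT spleen and was lower in lung, with a log2 fold change of -1.05 ± 0.12 in WT (adjusted p = 1.35e-07) and -0.83 ± 0.12 in KEP mice (adjusted p = 2.98e-06). Xaf1, an inducer of cell death, was at 10.9, 11.3 and 9.03 CPM in WT lung and 25.9, 20.4 and 25.1 CPM in WT spleen (-1.19 ± 0.21, adjusted p = 4.99e-05). In KEP mice it was at 13.5, 8.504 and 14.8 and 34.8, 23.7 and 29.6 CPM (-1.26 ± 0.20, adjusted p = 1.17e-05). Lung and spleen did not overlap for either gene in either genotype.

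Ifih1 was at 10.5, 11.9 and 9.14 CPM in WT lung and 27.4, 22.01 and 31.3 CPM in WT spleen (-1.36 ± 0.19, adjusted p = 1.93e-06), and at 12.5, 8.69 and 10.6 and 24.4, 22.3 and 20.5 CPM in KEP mice (-1.08 ± 0.18, adjusted p = 2.82e-05). Ddx58 was at 113, 81.8 and 92.3 CPM in WT lung and 139, 126 and 159 CPM in WT spleen (-0.56 ± 0.11), and in KEP mice the difference was -0.47 ± 0.11. Spleen held more of both sensors than lung in every library. Zbp1, Dhx58, Stat2, Rtp4, Usp18, Ifit2 and Ifi35 were also called lower in lung in both genotypes, by 0.25 to 1.35 on the log2 scale. Stat2, the partner of Irf9 in ISGF3, was at 70.4, 65.5 and 74.8 CPM in KEP lung and 96.8, 88.3 and 101 CPM in KEP spleen (-0.45 ± 0.09, adjusted p = 1.91e-04).

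The members higher in lung were few. Irf7 was at 112, 96.9 and 96.9 CPM in WT lung and 67.5, 54.6 and 57.8 CPM in WT spleen (0.77 ± 0.14, adjusted p = 1.03e-04). Isg15 was at 10.7, 17.1 and 16.8 and 10.5, 9.59 and 10.9 CPM (0.52 ± 0.21, adjusted p = 0.0469), with replicate 1 of lung inside the spleen range. In KEP mice Irf7 was not called in lung (0.05 ± 0.14, adjusted p = 0.802), and Eif2ak2 was the member called higher (0.56 ± 0.21, adjusted p = 0.0343). Macrophage and monocyte genes summed to 120.8 to 201.0 CPM in WT lung and 12.7 to 21.5 CPM in WT spleen, and their part was not tested. Lungs alone among the 4 tissues were digested with Liberase, so digestion and tissue cannot be told apart.

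In blood, the sensors Ifih1, Ddx58 and Ddx60 were lower and the effectors Rsad2, Samd9l and Cmpk2 higher than in spleen in both genotypes. In WT mice 8 of 34 members were called (25.5% of all genes were), 3 higher and 5 lower (13.8% and 11.8% of genes). In KEP mice 8 were called (24.6% of genes), 4 higher and 4 lower (12.3% and 12.2% of genes). With the library date as a block, the KEP count was 14, with 7 in each direction. Of 12332 genes 2282 were then called higher and 2318 lower. Rsad2 was at 29.6, 6.88 and 7.91 CPM in WT blood and 1.22, 0.771 and 1.64 CPM in WT spleen (3.59 ± 0.76, adjusted p = 0.00242). In KEP spleen it was at 3.68, 10.7 and 2.03 CPM (2.26 ± 0.65 for blood against spleen, adjusted p = 0.0168), where blood replicate 1 and spleen replicate 2 overlapped. Samd9l was at 531, 378 and 469.9 CPM in KEP blood and 257, 258 and 236 CPM in KEP spleen (0.86 ± 0.20, adjusted p = 0.00346), with no overlap. Cmpk2, the nucleotide kinase encoded beside Rsad2, rose in blood by 0.63 ± 0.22 in WT and 0.63 ± 0.21 in KEP mice.

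Isg15 was lower in blood than in spleen, with a log2 fold change of -1.26 ± 0.23 in WT (adjusted p = 3.13e-04) and -1.03 ± 0.22 in KEP mice (adjusted p = 0.00103). It was at 4.78, 4.11 and 4.003 CPM in WT blood and 10.5, 9.59 and 10.9 CPM in WT spleen, without overlap. In WT and KEP mice the log2 fold changes were -1.01 ± 0.18 and -0.96 ± 0.18 for Ifih1, -0.51 ± 0.11 and -0.45 ± 0.11 for Ddx58, and for Ddx60 -0.60 ± 0.18 and -0.65 ± 0.19. Ddx60 was at 19.7, 9.88 and 18.5 CPM in WT blood and 21.4, 21.7 and 30.2 CPM in WT spleen. Zbp1 was called lower in WT blood (-0.33 ± 0.09, adjusted p = 0.0124) and not in KEP blood (-0.03 ± 0.09, adjusted p = 0.876). For Ifih1 and Isg15 no blood library reached a spleen library of the same genotype.

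Between lymph node and spleen few members were called. In WT mice 3 of 34 were (8.97% of all genes were), and in KEP mice 4 (11.1% of genes), each of them lower in lymph node (4.41% and 5.72% of genes were). With the library date as a block these counts were 7 and 9, where 1596 of 12260 and 2648 of 12332 genes were called. Ifih1 was at 14.02, 17.6 and 16.8 CPM in WT lymph node, a log2 fold change of -0.73 ± 0.18 (adjusted p = 0.00884), and Ddx58 at 113, 94.3 and 106 CPM, a log2 fold change of -0.43 ± 0.11 (adjusted p = 0.0154). Irf7 was at 45.6, 43.8 and 36.3 CPM in WT lymph node and was lower than in spleen, with a log2 fold change of -0.51 ± 0.15 in WT (adjusted p = 0.0280) and -0.48 ± 0.14 in KEP mice (adjusted p = 0.0324). Rsad2 fell in KEP lymph node, with a log2 fold change of -3.54 ± 0.89 (adjusted p = 0.0153), where 11, 1 and 6 reads were counted. Oas3 was at 26.9, 16.3 and 18.3 CPM and Oas1a at 30.1, 20.97 and 21.8 CPM in KEP lymph node, and both fell, with log2 fold changes of -0.80 ± 0.22 (adjusted p = 0.0236) and -0.75 ± 0.24 (adjusted p = 0.0495). The KEP count fell to 0 without lymph node replicate 2 and to 1 without lymph node replicate 3 or spleen replicate 1, and the WT count to 1 without spleen replicate 3.

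**Figure D4:**
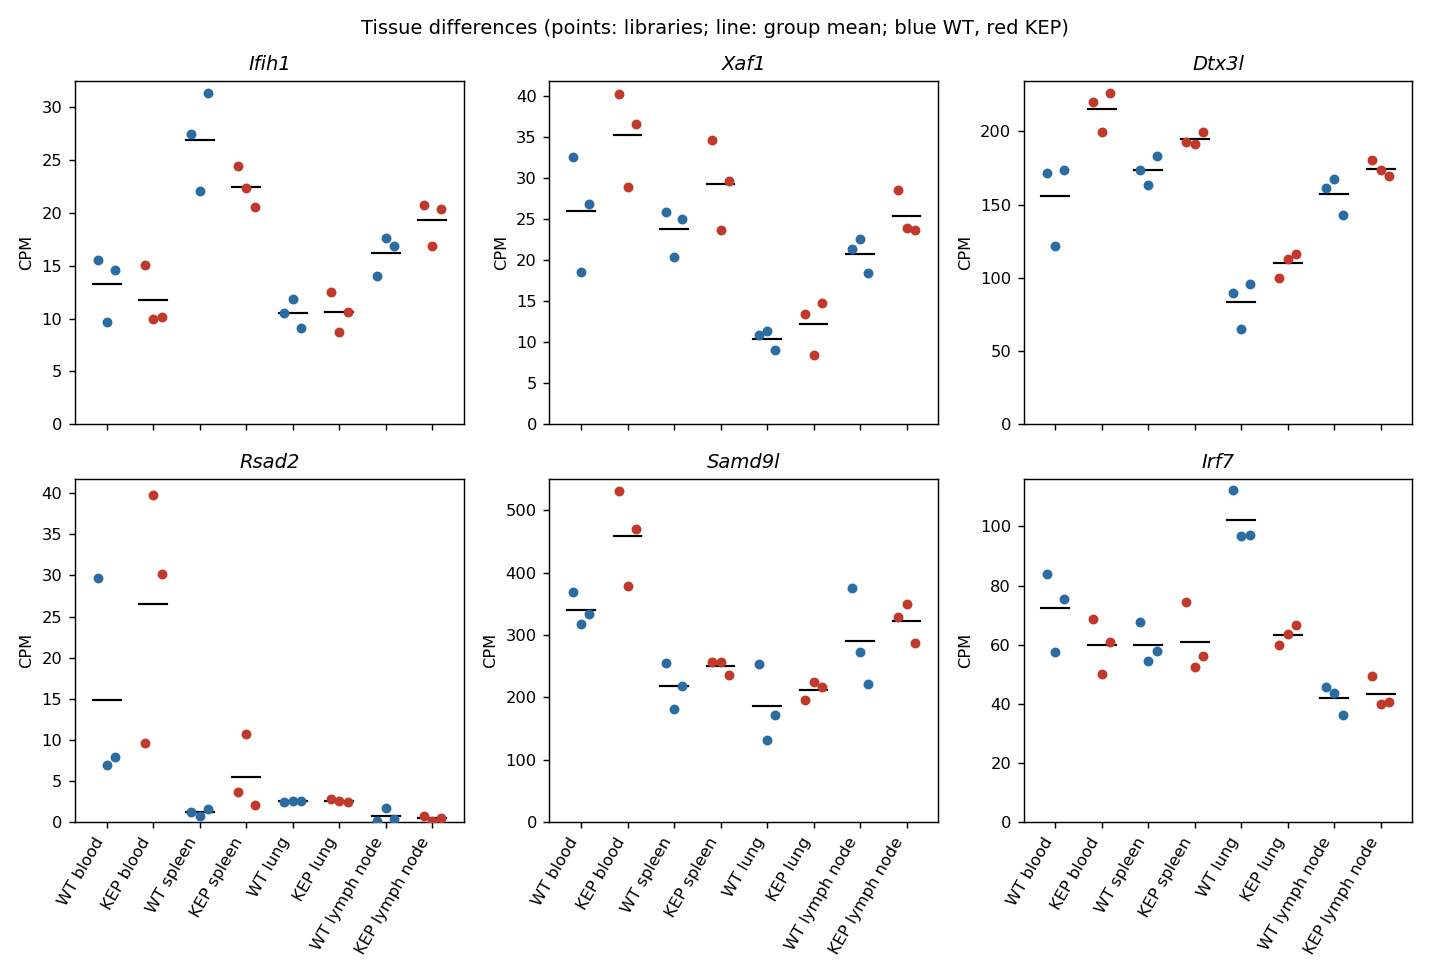
CPM of Ifih1, Xaf1, Dtx3l, Rsad2, Samd9l and Irf7 in the 8 groups of blood, spleen, lung and lymph node. Each point is 1 library (blue WT, red KEP) and each line a group mean. Lung points are the lowest for Xaf1 and Dtx3l, blood has the highest means for Rsad2 and Samd9l within each genotype, and WT lung points are the highest for Irf7.

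Among the KEP replicates, replicate 2 was most often the lowest in each distant tissue. Among members averaging at least 5 CPM, KEP replicate 2 was the lowest of the 3 for 21 of 27 in blood, 19 of 28 in spleen, 16 of 26 in lung and 16 of 28 in lymph node. Replicate 1 was most often the highest in blood, spleen and lymph node, for 15, 13 and 21 of them. In lung replicate 3 was the highest for 13 and the lowest for 0, while replicate 1 was the highest for 8 and the lowest for 10. Oas1a, Oas2, Oas3, Mx2, Ifih1 and Rtp4 were highest in KEP replicate 1 in all 4 tissues, and so was Ifi44, at 10 reads or fewer. In tumor the order was another one, replicate 2 being highest for most members. The same order over all genes is not given here. Same-date KEP libraries of the 4 distant tissues deviated together over genes (median r 0.376). The order can therefore not be called particular to the members. KEP replicate 2 had 17K sorted cells in blood and 30K in lung, the fewest of those groups, and 70K in spleen and lymph node, as had the other replicates, and the part of cell number was not tested.

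Upstream of the members, interferon genes themselves were hardly counted. Of the 15 listed type I interferon genes 4 were in the table, and they summed to at most 0.417 CPM in any library, so none was tested. Ifnb1 was at 0.0982, 0.0889 and 0.0963 CPM in the tumor libraries, which is 1 read each, and at 0 in the 28 others. Of 10 receptor and kinase genes tested, Ifnar2 was lower in KEP than WT blood (means 50.6 and 62.0 CPM) and lung (59.0 and 70.9 CPM), and Ifngr2 was lower in lung. Of all genes 10.3% were called lower in blood and 10.3% in lung. Against mammary gland, 5 of 11 receptor and kinase genes rose in tumor and none fell, among them Ifnar1 (285 against 107 CPM). Of all genes 11.2% were called higher there. The RNA pools compared were of unlike composition, as given above, and its part was not tested.

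In the sensing pathway, Irf3 and Ikbke, which relay sensor signals to the interferon promoters, were lower in KEP than WT blood (131 against 166 CPM and 325 against 414 CPM) and lung (66.2 against 89.9 CPM and 270.4 against 394 CPM). Tmem173 (STING) rose in KEP lung (148 against 111 CPM). Irf3 was lower in tumor than in KEP blood, spleen and lymph node, at a mean of 57.2 CPM in tumor. Of 37 other interferon-stimulated genes tested, 8 were higher and 1 lower in KEP blood, 6 and 1 in lung, 2 and 0 in spleen and 1 and 0 in lymph node. Of all genes 9.88%, 9.61% and 3.3% were called higher in blood, lung and spleen, and 1.12% were called in lymph node. Gbp2, an interferon-induced GTPase, was called higher in blood (233 against 179.9 CPM), spleen (188 against 137 CPM), lung (294 against 214 CPM) and lymph node (209 against 148 CPM). In tumor, Tdrd7 and Parp12 were called higher against each KEP tissue, with means of 34.3 and 48.7 CPM in tumor and 7.76 and 10.6 CPM in KEP blood. That list gave 17 higher and 1 lower of 38 against mammary gland, where 11.2% of all genes were called higher. It gave 8 and 6 of 37 against KEP blood and 8 and 6 of 38 against KEP spleen. Against KEP lung it gave 9 and 0 of 38, and against KEP lymph node 11 and 6 of 38. Of all genes 28%, 26.9%, 19.8% and 26.5% were called higher in that order, and 19.9%, 19.9%, 13% and 18.3% lower. The list's medians against the KEP tissues lay between -0.25 and 0.12 on the log2 scale, and the members' medians are given above.

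**Figure D5:**
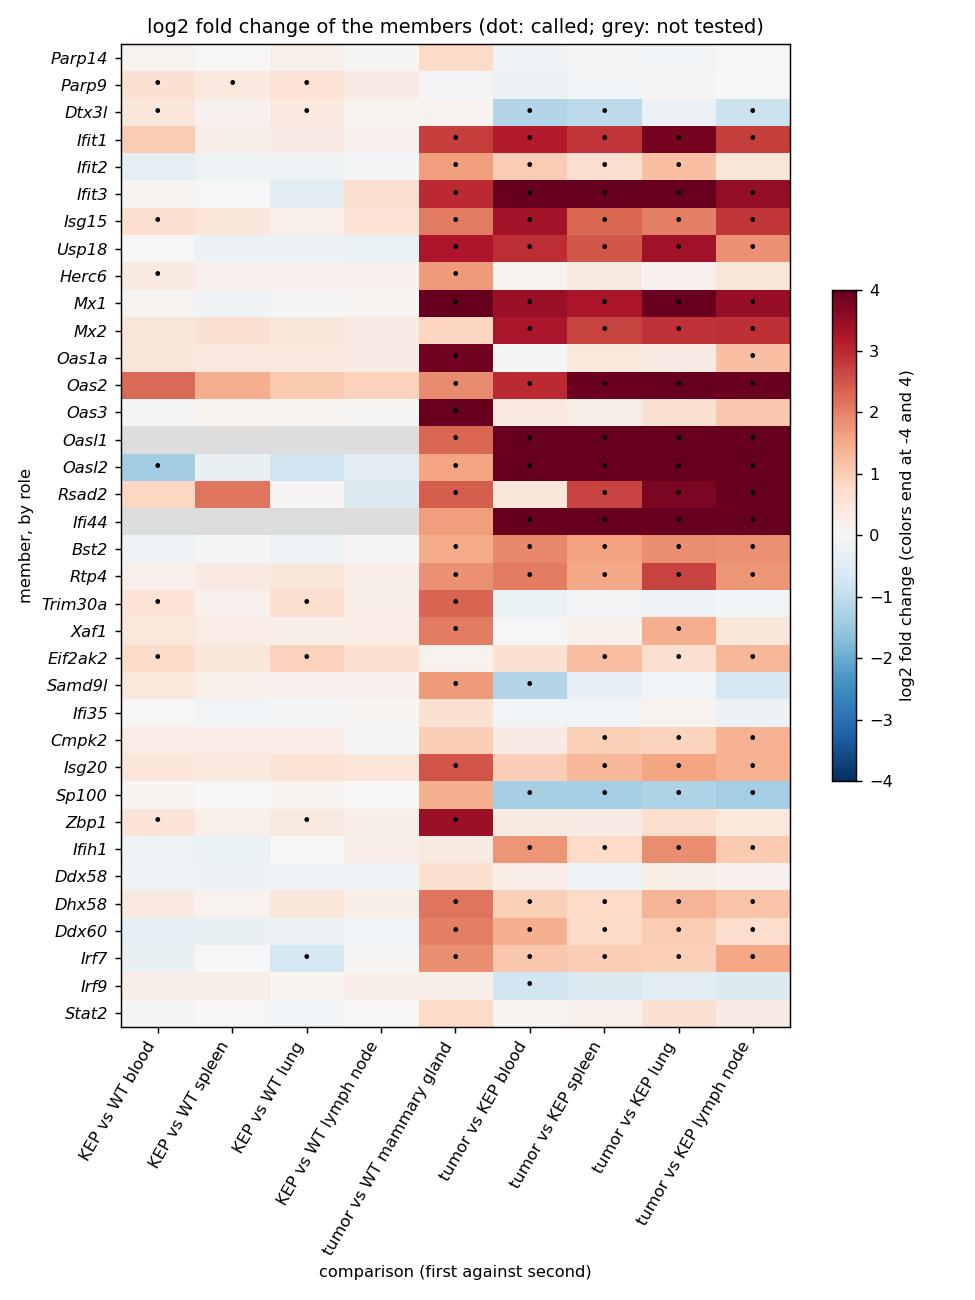
log2 fold change of the 36 members, ordered by role, in 4 KEP against WT comparisons and 5 tumor comparisons. Red is higher and blue lower in the first-named group, colors end at -4 and 4, a dot marks a call and grey was not tested. The Ifit1, Ifit3, Oasl1, Oasl2, Mx1, Mx2, Isg15 and Usp18 rows are red across the tumor columns. The KEP against WT columns are mostly pale, apart from cells such as Oas2 in blood (2.26) and Rsad2 in spleen (2.15), neither of them called.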

How the data were processed

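RNA of sorted Tregs was measured in 31 libraries. The deposited values are raw read counts per gene for 24594 genes, made by the authors, who name TopHat2 (2.1.0), HTSeq and the build GRCm38 per the submitters' processing notes. Libraries were made with a stranded mRNA kit and read as 65-base single reads, per the labels' protocols. The annotation release and the strand setting were not given in the sources used here.

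Differences were tested with edgeR (4.0.16, R 4.3.3), by its quasi-likelihood F test with robust dispersion, normalisation by the trimmed mean of M-values, a low-count filter with a minimum count of 10, and Benjamini-Hochberg adjustment over all genes tested. KEP against WT and tissue against spleen were fitted on 24 libraries of 8 groups, and each tumor comparison on its own libraries. Code was tested on simulated data. Genes written out with values in every library are the 6 called members with the smallest p per comparison (the 2 smallest p where none was called), and further members were named after their values were seen. The members, lists and designs were chosen with earlier results of these data known. Depth was 8154765 to 15258958 counts per library, so precision was limited by replicates for most members and by counts for those with few reads. Labels name separate mice or pools as replicates, at 3 per group (4 for mammary gland).

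The library date in the titles marks the same replicate number in all KEP tissues. Deviations from the group means correlated for 18 of 18 same-date KEP pairs among the 4 distant tissues (median r 0.376, lowest 0.243, over genes), for 15 of 18 WT pairs (median 0.144), and for 0 of 12 pairs with tumor and 0 of 12 with mammary gland, at r over 0.1. Fits with the date as a block were run within genotypes. Other alternatives were DESeq2 (1.42.0) with its own size factors, edgeR with relative log expression scaling, limma-voom (3.58.1) with quality weights, no filter, a minimum count of 50, scaling to 10 pan-T genes, other sets of libraries, and leaving out each library. Of the listed pathway genes, 1 is counted in its list while its own values are not reported here.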

Additional observations from a re-analysis of the deposited data

Results flagged for a closer look

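Ddx58, the RIG-I sensor, was at 109.551 CPM in mammary gland replicate 4, against 54.1 to 61.2 CPM in the 3 others. The gap to the nearest library exceeded the limit for a group of 4. Chance gives such a gap in about 1 of 20 groups, and 36 groups, 1 per member in mammary gland, were looked at. That library was made from 4.5K sorted cells, the fewest of the series, and carries its own date.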

How the results depend on the processing

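For single named members, 997 values kept direction and side of the threshold, 92 lost the call, 1 gained it and 4 reversed. The 4 reversed ones came from scaling to 10 pan-T genes in tumor against mammary gland, where Usp18 was -0.23, Bst2 -1.97, Isg15 -1.52 and Ddx60 -1.38 on the log2 scale. Under that scaling 11 members were called, each lower, where 12350 of 14538 genes were called lower. That scaling gave all genes a median of -3.42 in place of -0.01. In tumor against the KEP tissues it moved that median to between 0.85 and 0.96, and 93.5% to 96.4% of all calls were higher. In KEP against WT lung 26.4% of all calls were higher in place of 48.4%. In blood, lung and lymph node against spleen 73.9%, 59.2% and 66.9% were in KEP mice, and 73.9% and 69.9% in WT blood and lung. It called 0 members in KEP against WT spleen and 1 in lymph node against spleen in WT as in KEP mice. In 1 fit of all 31 libraries, members called were 1 in KEP against WT blood, 0 in spleen and 1 in lung. Of 15202 genes 657, 68 and 469 were called there. Against spleen, members called were 3 in WT blood, 7 in WT lung and 0 in WT lymph node. In KEP mice they were 3 in blood, 5 in lung and 1 in lymph node. Of all genes 1198, 4103 and 297 were called in WT mice, and 1100, 4287 and 247 in KEP mice, in the same order. With the replicate block by date, members called against spleen were 14 in KEP blood, 9 in KEP lymph node and 7 in WT lymph node, and the block ended no call of a named member. Of all genes 4600, 2648 and 1596 were called with the block, in place of 3150, 1420 and 1150. Limma-voom called 3 members in KEP against WT spleen, 5 in WT lymph node against spleen and 1 in the interaction, and DESeq2 called 5 and 1 in the last 2. Of all genes limma-voom called 1405, 2107 and 267 and DESeq2 1326 and 343, in place of 546, 1150 and 39. With no filter, 1 member (Parp9) was called in KEP against WT lymph node and 2 in the interaction. Of all genes 296 and 359 were called there, in place of 143 and 39. With the libraries compared alone, 7 members and 1260 of all genes were called in WT lymph node against spleen. Except where a setting tests fewer samples, the cause was not tested. Leaving out 1 library gave 4 to 12 members called in KEP against WT blood, 0 to 1 in spleen, 5 to 6 in lung and 0 in lymph node. Against spleen it gave 5 to 8 in WT blood (5 without WT spleen replicate 3), 1 to 3 in WT lymph node, 12 to 14 in WT lung, 5 to 7 in KEP blood (5 without KEP spleen replicate 1), 8 to 13 in KEP lung and 0 to 5 in KEP lymph node. For tumor it gave 19 to 26 against mammary gland, 14 to 25 against blood, 14 to 26 against spleen, 16 to 24 against lung and 18 to 30 against lymph node. For the fits without 1 library, counts over all genes are not given here. Depth limits Oasl1, Ifi44, Oasl2, Ifit3 and Oas2 in the 4 distant tissues, Rsad2 in lymph node and Mx1 in mammary gland.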
